A study of Mus musculus with 8 samples.

Results

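The genes described here are those of the vasopressin and oxytocin system: the hormone genes Avp and Oxt, the receptors Avpr1a, Avpr1b and Oxtr, the peptidase Lnpep, and Gpr165 and Caprin2, which were listed with them. They were named as a list and matched by Ensembl identifier, 8 genes of 55890 in the count table. RNA was measured in the hypothalamus of 16-week-old female mice, in 8 pools of RNA from 2 animals each. In 4 pools the animals were POMC-C451Af/f, which carry a POMC-Cre transgene and a floxed Esr1 allele, C451Af/f, that yields an altered estrogen receptor alpha in Cre-expressing cells. By the study, this change inactivates signalling that the receptor starts at the cell membrane. The 4 control pools are labelled wildtype, whereas the study's methods describe homozygous C451Af/f littermates without Cre. No treatment is named for either group, and strain, estrous stage and processing batch of each pool are not given in the sources used here. The animals were gonad-intact. In such females of this age the study reports higher serum estradiol, testosterone and progesterone in POMC-C451Af/f than in controls. It also reports a disturbed estrous cycle at a later age. The part of these hormones in differences between the genotypes was not tested. The Cre is driven by the POMC promoter, so the model limits the change to cells in which that transgene has been active, and whether Avp and Oxt neurons are among them was not tested. Total estimated counts ranged from 36095253 to 48942116 per pool.

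Vasopressin and oxytocin are made by large neurons of the paraventricular and supraoptic nuclei, whose axons release the hormones into the blood in the posterior pituitary, and vasopressin is also made in the suprachiasmatic nucleus. Each hormone is cut from a precursor that also holds a carrier protein, neurophysin. Vasopressin acts on water balance and vessels and oxytocin on birth and milk ejection, and both act within the brain through receptors coupled to G proteins.

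Avp and Oxt are neighbours on chromosome 2 and are transcribed towards each other, with 3565 bases between their ends in the GENCODE M21 annotation of GRCm38. Each has 3 exons, and exon 2, which codes for most of the neurophysin, has 202 bases in both. These exons are shown because they are alike and reads from them may match either gene. Capitals mark the 9 bases that differ (GRCm38, minus strand, chr2:130581056-130581257 for Avp and plus strand, chr2:130576591-130576792 for Oxt).
Avp: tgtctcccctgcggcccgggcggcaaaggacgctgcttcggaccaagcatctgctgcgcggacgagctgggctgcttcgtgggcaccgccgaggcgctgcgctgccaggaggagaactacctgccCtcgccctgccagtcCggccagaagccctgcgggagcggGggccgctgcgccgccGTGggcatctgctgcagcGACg
Oxt: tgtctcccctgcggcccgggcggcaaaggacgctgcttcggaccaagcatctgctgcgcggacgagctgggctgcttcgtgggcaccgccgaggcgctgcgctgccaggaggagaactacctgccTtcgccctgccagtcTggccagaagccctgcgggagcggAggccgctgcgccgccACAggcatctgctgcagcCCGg
The exons were 95.5% identical, and their first 125 bases did not differ. Among the transcripts of the annotation, no other gene shared 100 bases or more at 90% identity or more with a coding transcript of a listed gene. By the study's methods the reads were longer than those 125 bases, and how many reads matched both genes was not tested. Since the counting could split reads from exon 2 between Avp and Oxt, their values and their likeness to each other carry that uncertainty.

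The promoters of both hormone genes are shown because the genes moved together across pools and because the mutated gene codes for an estrogen receptor. By the study the mutation inactivates signalling from the cell membrane, and whether it changes binding of the receptor to DNA was not tested. Capitals mark GGTCA on either strand, the core of an estrogen response element, in the 250 bases before the RefSeq start (GRCm38.p6; minus strand, chr2:130582589-130582838 for Avp; plus strand, chr2:130575919-130576168 for Oxt).
Avp: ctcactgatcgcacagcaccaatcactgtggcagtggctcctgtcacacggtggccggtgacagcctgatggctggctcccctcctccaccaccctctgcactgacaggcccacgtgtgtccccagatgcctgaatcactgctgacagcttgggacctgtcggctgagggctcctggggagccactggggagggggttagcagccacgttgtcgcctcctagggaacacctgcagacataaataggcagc
Oxt: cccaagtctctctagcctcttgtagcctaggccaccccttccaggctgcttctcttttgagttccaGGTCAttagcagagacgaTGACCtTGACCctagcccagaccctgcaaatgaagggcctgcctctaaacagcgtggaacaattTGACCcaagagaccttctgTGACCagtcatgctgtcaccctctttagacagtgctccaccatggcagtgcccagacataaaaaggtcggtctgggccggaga
The Oxt window held 5 matches and the Avp window 0. Of 32851 promoters of the same length, 35.2% held at least 1 match and 0.0426% held 5 or more. The palindromic element GGTCANNNTGACC, which contains that core on both strands, was in neither window and in 0.0639% of promoters. The E-box CACGTG was in the Avp window and not in the Oxt window, against 6.02% of promoters, and the cAMP response element TGACGTCA was in neither, against 1.55%. A match of letters is a description and says nothing about binding.

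Avp, the vasopressin precursor gene, measured in CPM (counts relative to the TMM-scaled library size), stood at 166, 229, 116 and 150 in POMC-C451Af/f replicates 1 to 4. In control pools 1 to 4 it stood at 261, 195, 239 and 152 CPM. The groups overlapped: POMC-C451Af/f replicate 2 lay among the higher controls, and control replicate 4 lay among the mutant pools. Means were 165 ± 47.4 CPM (SD, n = 4) in POMC-C451Af/f and 212 ± 48.5 CPM (SD, n = 4) in control pools. The log2 fold change was -0.36 (SE 0.20; edgeR adjusted p = 0.878 over all genes tested). It was -0.56 without POMC-C451Af/f replicate 2 and -0.22 without POMC-C451Af/f replicate 3 (edgeR adjusted p = 0.479 and 1). An exact two-sided permutation test of the mean log2(CPM + 0.5) gave p = 0.2, where the smallest p that 4 pools against 4 allow is 0.0286.

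Oxt, the oxytocin precursor gene, had 206, 239, 130 and 179 CPM in POMC-C451Af/f replicates 1 to 4 and 271, 200, 246 and 175 CPM in the controls in the same order. POMC-C451Af/f replicate 3 was again the lowest pool and control replicate 1 the highest, and the groups overlapped. Group means were 189 ± 45.9 CPM (SD, n = 4) and 223 ± 43.6 CPM (SD, n = 4) for POMC-C451Af/f and control. For Oxt the log2 fold change was -0.24 (SE 0.18; edgeR adjusted p = 0.878), and the exact permutation test gave p = 0.343. Leaving out POMC-C451Af/f replicate 2 gave -0.38, POMC-C451Af/f replicate 3 -0.10 and control replicate 1 -0.14 (edgeR adjusted p = 0.532, 1 and 1). Fewer cells of a type and less RNA per cell cannot be told apart in tissue RNA.

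Avp had fewer CPM than Oxt in 8 of 8 pools. The log2 ratio of Avp to Oxt was -0.31, -0.06, -0.16 and -0.25 in POMC-C451Af/f replicates 1 to 4 and -0.06, -0.04, -0.04 and -0.20 in control replicates 1 to 4. The groups overlapped, with the mutant pools 1 and 4 the lowest and control pool 4 next. The mean was -0.20 ± 0.11 (SD, n = 4) in POMC-C451Af/f and -0.08 ± 0.08 (SD, n = 4) in control pools, a difference of -0.11 that did not pass the exact permutation test (p = 0.171).

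**Figure D1:**
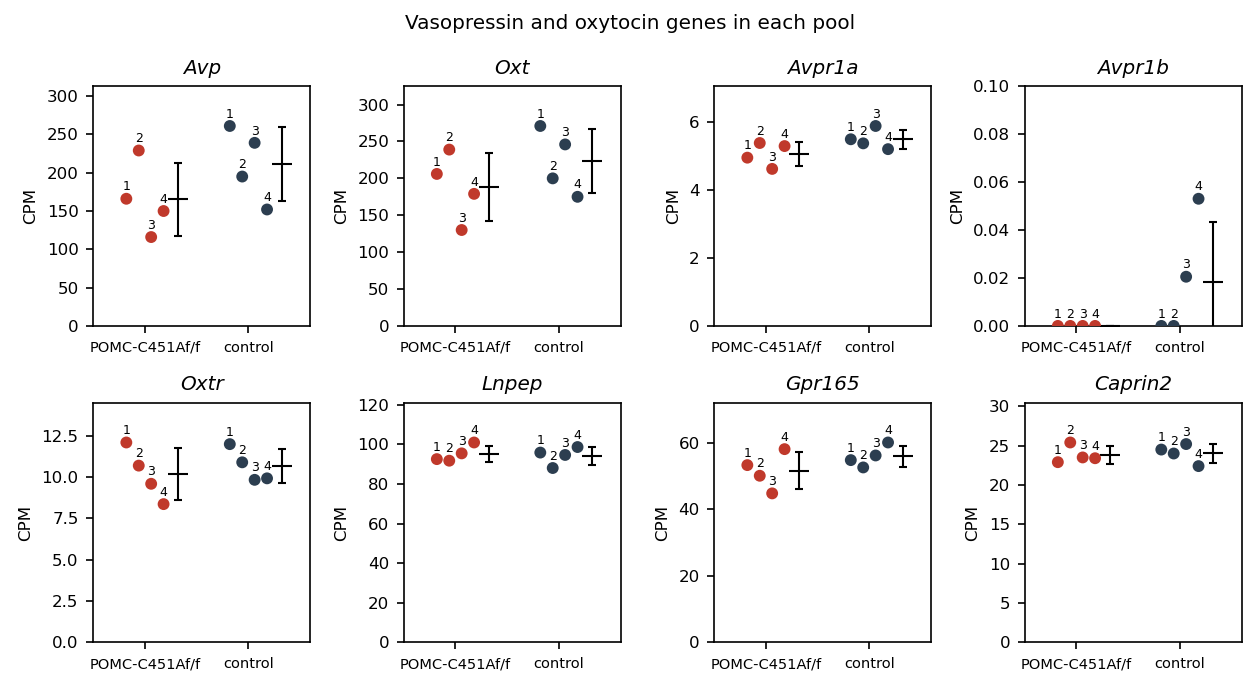
CPM of each of the 8 genes in the 4 POMC-C451Af/f pools (red) and the 4 control pools (dark), with the replicate number above each point and the group mean and SD in black. Avp and Oxt spread over 116 to 261 and 130 to 271 CPM, and no gene separates the groups.

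Among the receptors, Avpr1a, which codes for the V1a vasopressin receptor, had 4.94, 5.37, 4.61 and 5.28 CPM in POMC-C451Af/f replicates 1 to 4 and 5.48, 5.36, 5.87 and 5.19 CPM in the controls. POMC-C451Af/f replicate 3 was the lowest and control replicate 3 the highest, with overlap between the groups. Its log2 fold change was -0.12 (SE 0.09; edgeR adjusted p = 0.878). An antisense gene overlaps Avpr1a in the annotation, and how the counting used strand is not given in the sources used here, so reads of the pair may not be told apart.

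Oxtr, the oxytocin receptor gene, had 12.1, 10.7, 9.6 and 8.37 CPM in POMC-C451Af/f replicates 1 to 4 and 12, 10.9, 9.84 and 9.93 CPM in the controls. The highest and the lowest pool were both POMC-C451Af/f, and the controls lay between them. Its log2 fold change was -0.06 (SE 0.11; edgeR adjusted p = 0.947).

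Avpr1b, which codes for the V1b receptor known from pituitary corticotrophs, had an estimated count of 0 in 6 pools, 1 in control replicate 3 and 2 in control replicate 4. All are under the limit that a count of 0 allows, 3 counts or 0.0613 to 0.0831 CPM per pool, which covers counting error only. No fold is given, and the gene did not pass the filter on low counts. Avpr2, the V2 receptor of the kidney and the receptor of the family outside the list, was at 0 in all 8 pools. In the annotation Avpr2 overlaps L1cam and Arhgap4 on the opposite strand, and 1298 bases of its transcript are identical to Arhgap4, which had 6.37 to 7.49 CPM. Whether reads of Avpr2 were assigned to that gene was not tested, so the 0 is a value of this counting.

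Lnpep, a membrane aminopeptidase that cleaves oxytocin and vasopressin, had 91.8 to 101 CPM in POMC-C451Af/f and 88.1 to 98.7 CPM in control pools, and its log2 fold change was 0.02 (SE 0.05; edgeR adjusted p = 0.971). Gpr165, an orphan receptor gene, had 44.8 to 58.1 CPM in POMC-C451Af/f and 52.6 to 60.1 CPM in control pools, with a log2 fold change of -0.12 (SE 0.07; edgeR adjusted p = 0.878). Caprin2, which codes for an RNA-binding protein, had 22.9 to 25.4 CPM in POMC-C451Af/f and 22.4 to 25.2 CPM in control pools, with a log2 fold change of -0.01 (SE 0.05; edgeR adjusted p = 0.975). The value of Gpr165 was -0.06 without POMC-C451Af/f replicate 3. These ranges overlapped for each of the genes. An annotated gene on the same strand overlaps Lnpep, so their reads may not be told apart.

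Of the 8 genes, 7 passed the filter on low counts and 0 were called at an FDR of 0.05 and an absolute log2 fold change over 0.5 by edgeR, against 0.0215% of all 18637 genes tested. By an unadjusted p under 0.05, 0 of the 7 passed, against 5.1% of genes. In edgeR with no filter on low counts Avp had an unadjusted p of 0.0427 (adjusted p = 0.789). Without POMC-C451Af/f replicate 2 its unadjusted p in edgeR was 0.0098 (adjusted p = 0.479), where 9.38% of genes were under 0.05, and without control replicate 4 it was 0.0312 (adjusted p = 0.795). Gpr165 had an unadjusted p of 0.0219 in edgeR without POMC-C451Af/f replicate 4 (adjusted p = 0.979). The groups did not overlap for 0 of the 7, against 2.78% of genes. DESeq2 also called 0 of them. The median log2 fold change of the 7 genes was -0.12, beside 0.00 for all genes tested, with 6 below 0 and 1 above, and -0.06 without POMC-C451Af/f replicate 3.

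**Figure D2:**
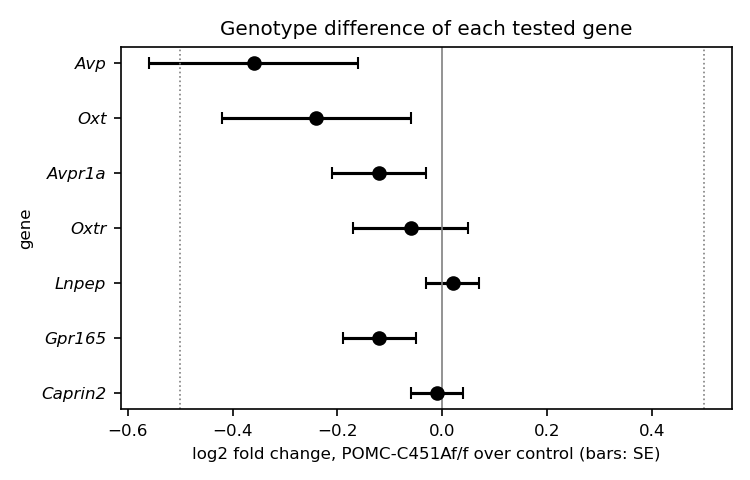
Log2 fold change of POMC-C451Af/f over control for the 7 genes that passed the filter, with bars of 1 SE and dotted lines at -0.5 and 0.5. Avp has the widest bar, SE 0.20, and Lnpep lies at 0.02.

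Levels were compared between genes per kilobase of the longest coding transcript. Oxt had 383 and Avp 327 CPM per kilobase, ranks 65 and 93 of 15345 coding genes. Then came Gpr165 with 17, Lnpep with 7.87 and Caprin2 with 6.46, and the receptors Oxtr with 2.22 and Avpr1a with 1.97 were lowest among those tested. The order of neighbours in this ranking was not tested.

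Across the 8 pools the hormone genes varied more than most genes. The SD of log2(CPM + 0.5) was 0.40 for Avp and 0.34 for Oxt, above that of 98.2% and 97.3% of 15640 genes with at least 1 CPM on average. Oxtr had an SD of 0.17, Gpr165 of 0.13 and Avpr1a of 0.09, and Lnpep and Caprin2 had 0.06, where the median gene had 0.09.

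Covariation across pools was examined as a guide to the extent of the dissection. Avp and Oxt moved together from pool to pool. Over 8 pools Pearson's r was 0.97 (exact permutation p = 1.5e-04, adjusted p = 0.00417 over 28 pairs) and Spearman's rho 0.95 (exact permutation p = 0.00114, adjusted p = 0.0319). Without POMC-C451Af/f replicate 3 and control replicate 1, the pools farthest from the median of Avp, r was 0.95 (exact permutation p = 0.0139). A relation is said here to rest on the 2 farthest pools where the exact permutation p of r over the remaining pools was not under 0.05. With fewer pools over a narrower range a pass is harder. The term therefore does not mean that the relation is absent without them. With genotype means removed r was 0.97, and the exact permutation within genotypes gave p = 0.00347, or 0.0972 adjusted over the 28 pairs, where the smallest p that this permutation allows is 0.00174. The pair Avp and Oxt was the 1 of 28 pairs of listed genes with an adjusted p under 0.05.

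The next pairs did not pass the adjustment. For Avp with Avpr1a r was 0.84 and rho 0.88 (exact permutation p = 0.00699 and 0.00724, adjusted p = 0.0979 and 0.101), and r was 0.73 without the same 2 pools. For Oxt with Avpr1a r was 0.81 and rho 0.83 (exact permutation p = 0.0185 and 0.0154, adjusted p = 0.173 and 0.144), and r was 0.59 without them. For Avp with Caprin2 r was 0.76 and rho 0.69 (exact permutation p = 0.034 and 0.0694, adjusted p = 0.238 and 0.332), and r was 0.94 without them. Pairs with Avpr1b rest on the 2 pools with a count and are not read.

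**Figure D3:**
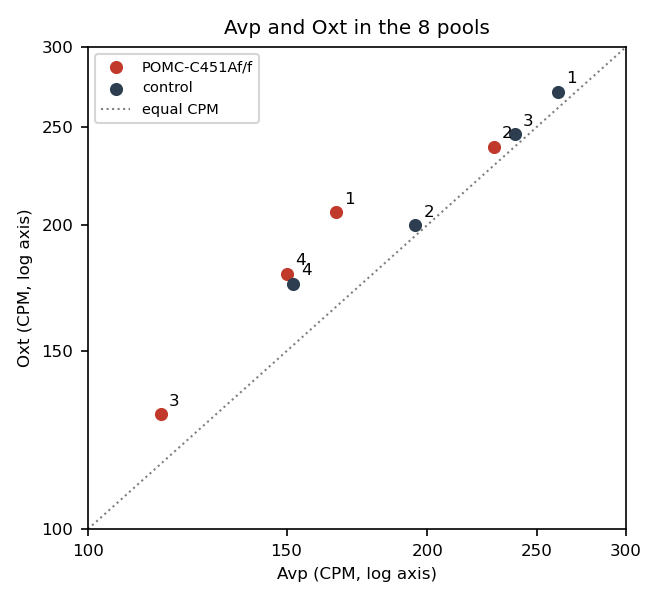
Avp against Oxt in CPM on log axes, with POMC-C451Af/f pools in red, control pools in dark, replicate numbers beside the points and a dotted line of equal CPM. All 8 pools lie above the line, from POMC-C451Af/f replicate 3 at 116 and 130 CPM to control replicate 1 at 261 and 271 CPM.

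The rank of Oxt among 15639 genes by Pearson's r with Avp was 7, and that of Avp with Oxt was 12. The 5 genes most like Avp over the 8 pools were ENSMUSG00000120885.1, which had no symbol in the annotation used, 1700037H04Rik, Serping1, Rufy4 and Cog1, with r from 0.98 to 0.99. Those most like Oxt were 1700037H04Rik, Hmcn2, Ptprk, Fezf1 and Cog1, with r from 0.98 to 0.99. As many as 175 genes had an r over 0.9 with Avp and 185 with Oxt. These are descriptions over 8 pools with no test. The annotated neighbours did not share the range of the hormones: Mrps26 had 39.1 to 44.8 CPM and Ubox5 9.22 to 10.8 CPM.

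Of genes known to be expressed in magnocellular neurons besides the hormones, 8 partner genes were listed: the peptide genes Pdyn, Gal and Cck, the transcription factor gene Creb3l1, the nitric oxide synthase gene Nos1, the receptor genes Prlr and Esr2, and the glutamate transporter gene Slc17a6. Pdyn, the prodynorphin gene that vasopressin neurons express, had 53.7, 62.5, 39 and 51.5 CPM in POMC-C451Af/f replicates 1 to 4 and 70.4, 56.9, 61.6 and 53.3 CPM in the controls. The same pools were lowest and highest as for the hormones, and the groups overlapped. Its r with Avp was 0.96 and rho 0.98 (exact permutation p = 7.4e-05 and 4.0e-04, adjusted p = 0.00119 and 0.00635 over 16 relations), and r was 0.98 without POMC-C451Af/f replicate 3 and control replicate 1. With Oxt r was 0.97 and rho 0.93 (exact permutation p = 3.2e-04 and 0.00223, adjusted p = 0.00258 and 0.0179), and 0.92 without those pools. With genotype means removed, the exact permutation within genotypes gave r of 0.94 for Avp (adjusted p = 0.0694, no longer under 0.05) and 0.98 for Oxt (adjusted p = 0.0278). This set of 16 relations was added after the data were seen.

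Gal, the galanin gene, had r of 0.87 with Avp (rho 0.86, exact permutation p = 0.00377 and 0.0107, adjusted p = 0.0201 and 0.0571), which was 0.66 without the 2 farthest pools (exact permutation p = 0.161) and so rests on them. Slc17a6, the glutamate transporter gene found widely in the hypothalamus and thalamus, had r of -0.85 with Avp (rho -0.81, exact permutation p = 0.0061 and 0.0218, adjusted p = 0.0244 and 0.0871), and -0.58 without those pools (exact permutation p = 0.243), so that it rests on them too. With Oxt, r was 0.84 for Gal and -0.85 for Slc17a6 (rho 0.76 and -0.67; exact permutation p for r of 0.0106 and 0.00878, adjusted p = 0.0282 and 0.0281; for rho 0.0368 and 0.0831, adjusted p = 0.118 and 0.19), and 0.44 and -0.43 without those pools (exact permutation p = 0.393 and 0.392), on which both rest. Removing genotype means left r near its value, at 0.83 for Gal with each hormone, -0.79 for Slc17a6 with Avp and -0.82 with Oxt, and the exact permutation within genotypes gave an adjusted p of 0.12 for each. Cck, the cholecystokinin gene, ran against the hormones with no pass: r was -0.69 with Avp (rho -0.67, exact permutation p = 0.0587 and 0.0831, adjusted p = 0.117 and 0.19) and -0.73 with Oxt (rho -0.64, exact permutation p = 0.0379 and 0.0962, adjusted p = 0.0867 and 0.192), and -0.16 and -0.18 without the 2 farthest pools. For Creb3l1, Nos1, Prlr and Esr2 r lay from -0.06 to 0.58 with Avp and from 0.03 to 0.69 with Oxt, none with an adjusted p under 0.05 by the exact permutation test. In edgeR 0 of the 8 partner genes were called, and 2 had an unadjusted p under 0.05, against 5.1% of all genes tested: Gal with a log2 fold change of -0.14 (SE 0.06) and Slc17a6 with 0.14 (SE 0.06), both with adjusted p = 0.878. Without POMC-C451Af/f replicate 3 these were -0.09 and 0.08. Slc17a6 was also the most abundant of the list, at 265 CPM.

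The dissection was described with 11 lists of region or tissue markers, summed in each pool. The lateral hypothalamus and mammillary list, led by the melanin-concentrating hormone gene Pmch, summed to 638, 709, 446 and 565 CPM in POMC-C451Af/f replicates 1 to 4 and 854, 587, 721 and 616 CPM in the controls. It was lowest and highest in the same pools as Avp and Oxt. With Oxt, r was 0.96 and rho 0.93 (exact permutation p = 2.7e-04 and 0.00223, adjusted p = 0.006 and 0.0164 over 22 relations), and r was 0.89 without the 2 farthest pools. With Avp, r was 0.92 and rho 0.93 (exact permutation p = 9.9e-04 and 0.00223, adjusted p = 0.0109 and 0.0164), and r was 0.81 without them (exact permutation p = 0.0639). By the rule above the relation with Avp rests on those pools and that with Oxt (exact permutation p = 0.0264) does not. The values of r were close, and whether they differ between the hormones was not tested. Leaving out each pool in turn, the adjusted p stayed under 0.05 in 8 of 8 cases for Oxt and 6 of 8 for Avp, and was 0.0698 for Avp without POMC-C451Af/f replicate 3 and 0.0546 without control replicate 1. Over all lists, 8 of the 22 relations had an adjusted p under 0.05 for r. With genotype means removed r was 0.96 for Oxt and 0.90 for Avp with this list, close to the values above, and the exact permutation within genotypes gave adjusted p = 0.0764 and 0.102. That permutation has 576 pairings and a smallest p of 0.00174, and under it 0 of the 8 relations had an adjusted p under 0.05.

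The midbrain dopaminergic list went the other way. It summed to 225, 172, 377 and 263 CPM in POMC-C451Af/f replicates 1 to 4 and 141, 145, 173 and 182 CPM in the controls, with POMC-C451Af/f replicate 3, the lowest pool for both hormones, the highest. Its r with Avp was -0.86 and rho -0.88 (exact permutation p = 0.00523 and 0.00724, adjusted p = 0.035 and 0.0319), and r was -0.64 without the 2 farthest pools (exact permutation p = 0.178). With Oxt r was -0.83 and rho -0.74 (exact permutation p = 0.0118 and 0.0458, adjusted p = 0.0371 and 0.112), and r was -0.42 without them (exact permutation p = 0.41). Both relations rest on those pools. Leaving out each pool in turn, the adjusted p stayed under 0.05 in 4 of 8 cases for Avp and 3 of 8 for Oxt, and was highest, at 0.2 and 0.266, without POMC-C451Af/f replicate 3. Removing genotype means gave r of -0.83 for Avp and -0.85 for Oxt, near the values above, with an adjusted p of 0.115 for both by the exact permutation within genotypes.

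Of the 8 midbrain genes, 8 had a positive log2 fold change, with a median of 0.70 beside 0.00 for all genes (0.37 without POMC-C451Af/f replicate 3, with 8 still positive), and 6 had an unadjusted p under 0.05, none called by edgeR: Slc6a3, the dopamine transporter gene, at 1.86 (SE 0.60), En1 at 1.99 (SE 0.64), Pitx3 at 1.23 (SE 0.47), Nr4a2 at 0.52 (SE 0.16), Aldh1a1 at 0.48 (SE 0.15) and Th, for tyrosine hydroxylase, at 0.55 (SE 0.13). Of all genes tested, 5.1% had an unadjusted p under 0.05. This list, like the others, was chosen with earlier results of these data known. Th had 55.4 to 90.8 CPM in POMC-C451Af/f and 42 to 51.1 CPM in control pools, and was the 1 gene of the list whose groups did not overlap, against 2.78% of all genes tested. The study's own comparison called Th, whereas edgeR and DESeq2 here did not (adjusted p = 0.878 and 0.734). The cause of that disagreement was not tested. The most abundant gene of the list was Aldh1a1 at 92.4 CPM, with a log2 fold change of 0.29 without POMC-C451Af/f replicate 3, and no gene of it was at 0 in all pools. With the log2 sum of this list as a covariate, added after the data were seen, the log2 fold change was 0.17 for Avp and 0.23 for Oxt (edgeR adjusted p = 0.999 for both), so the direction turned. The sum was itself higher in POMC-C451Af/f, at 172 to 377 CPM against 141 to 182 CPM in the controls, and 44.1% of it was Aldh1a1. Covariate and genotype cannot be cleanly told apart in this fit, so the turn is a description only. With the thalamus list as a covariate, added in the same way, the log2 fold change was -0.26 for Avp and -0.15 for Oxt (edgeR adjusted p = 0.998 for both), and the direction did not turn. The part of tissue outside the hypothalamus in the difference between genotypes was not tested.

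The myelin genes of oligodendrocytes summed to 5332, 5239, 6495 and 5924 CPM in POMC-C451Af/f replicates 1 to 4 and 4480, 5332, 5385 and 5340 CPM in the controls, highest where the hormones were lowest and lowest where they were highest. With Avp r was -0.84 and rho -0.74 (exact permutation p = 0.00697 and 0.0458, adjusted p = 0.035 and 0.112), and with Oxt r was -0.87 and rho -0.71 (exact permutation p = 0.00796 and 0.0576, adjusted p = 0.035 and 0.115). Without the 2 farthest pools r was -0.52 and -0.50 (exact permutation p = 0.336 and 0.41), so that both relations rest on them. Leaving out each pool in turn, the adjusted p stayed under 0.05 in 4 of 8 cases for each hormone, and was highest, at 0.119 for Avp and 0.135 for Oxt, without POMC-C451Af/f replicate 3. Removing genotype means gave r of -0.78 for Avp and -0.85 for Oxt, with adjusted p of 0.132 and 0.102 by the exact permutation within genotypes. Of the 5 genes 5 had a positive log2 fold change, with a median of 0.17 (0.11 without POMC-C451Af/f replicate 3), and Mog and Mag had an unadjusted p under 0.05 in edgeR (log2 fold changes of 0.23 and 0.22, each SE 0.08), with 0 called. An unadjusted p under 0.05 was found for 5.1% of all genes tested. Mbp was the most abundant at 2676 CPM.

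The arcuate and ventromedial list summed to 89.9, 94.2, 64.9 and 63.8 CPM in POMC-C451Af/f replicates 1 to 4 and 147, 84.3, 90.9 and 84.1 CPM in the controls. Control replicate 1 stood above the other pools. Its r was 0.82 with Avp (rho 0.93, exact permutation p = 0.0105 and 0.00223, adjusted p = 0.0371 and 0.0164) and 0.82 with Oxt (rho 0.90, exact permutation p = 0.0159 and 0.00456, adjusted p = 0.0439 and 0.0251), and 0.66 and 0.69 without the 2 farthest pools (exact permutation p = 0.0944 and 0.0764), on which both rest. Leaving out each pool in turn, the adjusted p stayed under 0.05 in 5 of 8 cases for Avp and 2 of 8 for Oxt, and was 0.101 and 0.0975 without control replicate 1. Removing genotype means gave r of 0.75 for Avp and 0.78 for Oxt, with adjusted p of 0.132 and 0.115 by the exact permutation within genotypes. Pomc, the gene whose promoter drives the Cre, made up 57.9% of this sum. It had 49.5, 50.2, 35.8 and 30.6 CPM in POMC-C451Af/f replicates 1 to 4 and 98.9, 49.7, 50.5 and 50.8 CPM in the controls. Control replicate 1 stood apart, and the groups overlapped. The log2 fold change was -0.59 (SE 0.24), with an unadjusted p of 0.0319 in edgeR (adjusted p = 0.878), and -0.28 without control replicate 1 (unadjusted p = 0.0971 in edgeR). Pomc is also expressed in the pituitary, and the sum of the anterior pituitary list was also highest in control replicate 1, at 1451 CPM, with 17 to 223 CPM elsewhere. The part of pituitary tissue in the value of Pomc was not tested.

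**Figure D4:**
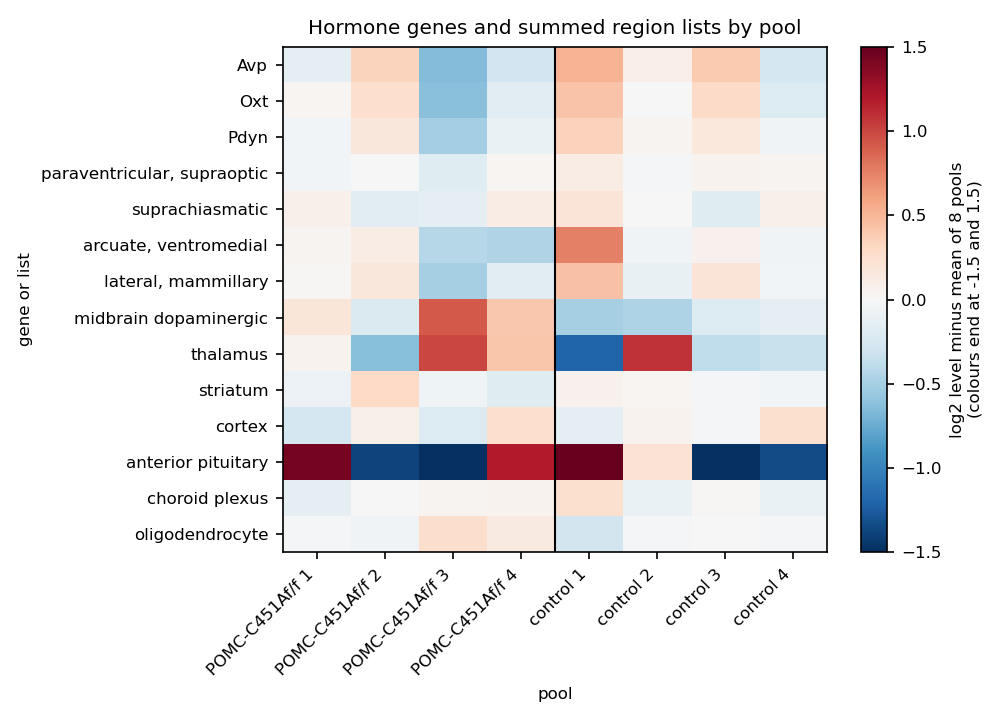
Log2 level of Avp, Oxt, Pdyn and the summed region lists in each pool, minus the mean of the 8 pools, with POMC-C451Af/f pools left of the line and control pools right of it. POMC-C451Af/f replicate 3 is low for the hormones and high for midbrain, thalamus and myelin lists, and the pituitary list runs past both ends of the colours.

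The list of the paraventricular and supraoptic nuclei themselves held Otp, which followed the hormones, and genes whose relation to them did not pass. Otp, a transcription factor gene needed for the neurosecretory neurons, had 47.9, 60, 38.4 and 43.6 CPM in POMC-C451Af/f replicates 1 to 4 and 65.9, 50.6, 54.1 and 49 CPM in the controls. It was lowest and highest in the same pools as the hormones, and the groups overlapped. Its r was 0.95 with Avp (rho 0.95, exact permutation p = 2.7e-04 and 0.00114, adjusted p = 0.00327 and 0.0137 over 12 relations) and 0.93 with Oxt (rho 0.86, exact permutation p = 7.9e-04 and 0.0107, adjusted p = 0.00476 and 0.0643), and 0.87 and 0.82 without the 2 farthest pools (exact permutation p = 0.0153 and 0.0458). With genotype means removed r was 0.93 and 0.92, with an adjusted p of 0.0417 for both by the exact permutation within genotypes. For the other 5 genes r lay from -0.17 to 0.77 with Avp and from -0.02 to 0.76 with Oxt, highest for Trh and lowest for Pou3f2, none with an adjusted p under 0.05 by the exact permutation test. Without the 2 farthest pools their r with Avp lay from -0.59 for Crh to 0.32 for Trh. With Oxt it then lay from -0.78 for Crh to 0.07 for Trh. This set of 12 relations was added after the data were seen.

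The sum of that list was 434 CPM in POMC-C451Af/f replicate 3 and 533 CPM in control replicate 1, the lowest and the highest pool, and 63.4% of it was Arnt2, at 289 to 327 CPM. With Avp r of the sum was 0.72 and rho 0.64 (exact permutation p = 0.0354 and 0.0962, adjusted p = 0.0708 and 0.176), and with Oxt r was 0.77 and rho 0.60 (exact permutation p = 0.0286 and 0.132, adjusted p = 0.0645 and 0.208). Without those pools r was 0.00 and -0.11 (exact permutation p = 0.996 and 0.808), so the relation of the sum rests on them. Trh, the thyrotropin-releasing hormone gene, had 65.7 to 82.7 CPM in POMC-C451Af/f and 86.3 to 94.1 CPM in control pools, with no overlap and a log2 fold change of -0.23 (SE 0.07), with an unadjusted p of 0.00544 in edgeR (adjusted p = 0.878). The groups did not overlap for 2.78% of all genes tested.

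The relations of the remaining lists did not pass the adjustment. Thalamic genes, led by Prkcd, summed highest in control replicate 2, at 345 CPM, and lowest in control replicate 1, at 70.5 CPM, with r of -0.69 with Avp and rho -0.71 (exact permutation p = 0.0606 and 0.0576, adjusted p = 0.111 and 0.115), and r of -0.31 without the 2 farthest pools. With Oxt r was -0.75 and rho -0.74 (exact permutation p = 0.0293 and 0.0458, adjusted p = 0.0645 and 0.112), and -0.43 without them. Suprachiasmatic genes, led by Lhx1, summed to 45.3 to 58.9 CPM, with r of 0.02 and rho -0.10 with Avp (exact permutation p = 0.956 and 0.84, adjusted p = 0.957 and 0.88). Without POMC-C451Af/f replicate 3 and control replicate 1 that r was -0.97 over 6 pools (exact permutation p = 0.00139), so its value depends on which pools are kept. With Oxt r was 0.15 and rho -0.05 (exact permutation p = 0.732 and 0.935, adjusted p = 0.847 and 0.935), and -0.93 without those pools. Striatal genes, led by Rgs9, summed to 82.9 to 116 CPM, cortical genes, led by Tbr1, to 10.9 to 15.6 CPM, and choroid plexus genes, led by Clic6, to 29.4 to 38.6 CPM. The striatal sum had r of 0.61 and rho 0.76 with Avp (exact permutation p = 0.099 and 0.0368, adjusted p = 0.168 and 0.112). Without the 2 farthest pools that r was 0.71. With Oxt its r was 0.51 and rho 0.60 (exact permutation p = 0.193 and 0.132, adjusted p = 0.304 and 0.208), and r was 0.64 without them. For the cortical sum r was -0.02 with Avp and -0.04 with Oxt, and for the choroid sum 0.36 and 0.31. Anterior pituitary genes, led by Prl, summed to 1451 CPM in control replicate 1 and 17 to 223 CPM in the other pools, so the pools stand apart and no r is given. Median log2 fold changes were 0.26 for 6 thalamic genes, -0.04 for 8 suprachiasmatic, 0.02 for 5 striatal, -0.06 for 4 cortical, -0.08 for 5 choroid, -1.20 for 4 pituitary, -0.14 for 4 lateral and mammillary, -0.13 for 5 arcuate and ventromedial and -0.10 for 6 paraventricular and supraoptic genes tested, with 0 called in each. The pituitary median rests on control replicate 1: without that pool it was 0.73, with 4 of 4 genes above 0. The thalamic median was -0.01 without POMC-C451Af/f replicate 3, 0.05 without control replicate 1 and 1.06 without control replicate 2. Without POMC-C451Af/f replicate 3 the medians of the lateral and mammillary, the arcuate and ventromedial and the paraventricular and supraoptic genes were -0.05, -0.03 and -0.03, and without control replicate 1 the first and the second of these were -0.07 and -0.01. The suprachiasmatic, striatal and cortical medians, near 0, also changed sign without single pools, spanning -0.11 to 0.02, -0.13 to 0.13 and -0.10 to 0.02. The choroid median kept its sign, at -0.03 without control replicate 1 and -0.13 without control replicate 2. Besides Pomc and Trh, described above, Grp of the suprachiasmatic list had an unadjusted p of 0.0342 in edgeR (log2 fold change 0.30).

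**Figure D5:**
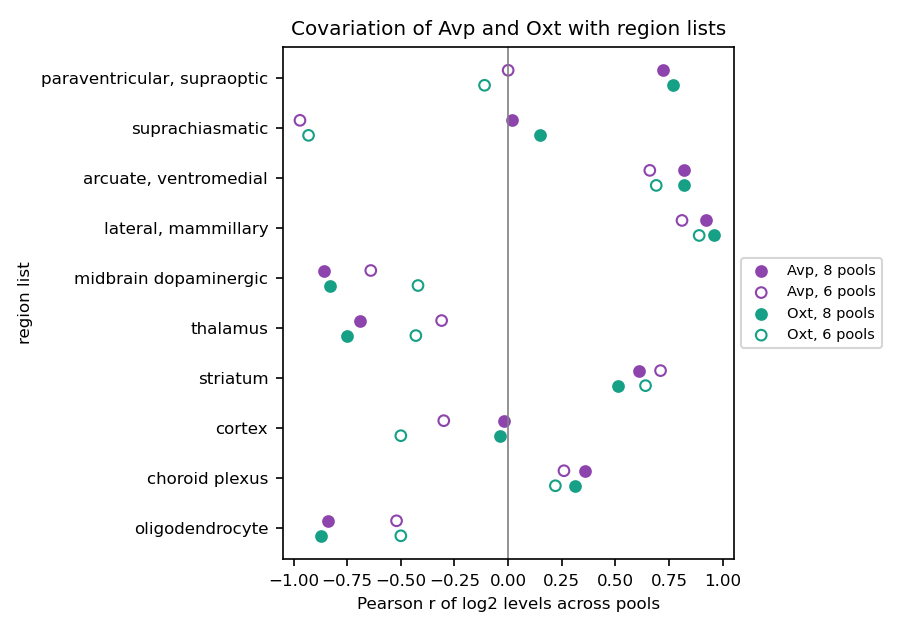
Pearson's r over 8 pools (filled) and without the 2 pools farthest from the median of the hormone (open) for Avp and Oxt with each summed region list except the pituitary list. The lateral and mammillary list lies at 0.92 and 0.96 over 8 pools, and the midbrain list at -0.86 and -0.83.

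Genes of the pathway downstream of the receptors and of hormone maturation were described from lists. The receptors signal through Gq to phospholipase C, and of 13 signalling genes 12 were tested, 7 above and 5 below 0 in log2 fold change, with a median of 0.03 (0.00 to 0.05 leaving out each pool) and 0 called. Cd38, an enzyme required for oxytocin release, had 17.1, 17.3, 17.9 and 18.2 CPM in POMC-C451Af/f replicates 1 to 4 and 21.2, 18.9, 21.4 and 21.4 CPM in the controls. The groups did not overlap, as for 2.78% of all genes tested, and its log2 fold change was -0.23 (SE 0.05), with an unadjusted p of 0.00101 in edgeR (adjusted p = 0.74). Grk5, a kinase that desensitises receptors, had a log2 fold change of 0.18 (SE 0.08), with an unadjusted p of 0.0467 in edgeR (adjusted p = 0.878). Arrb1, an arrestin gene, was the most abundant at 337 CPM.

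Of 8 genes for hormone maturation, which cut, amidate and store the precursors, 8 were tested, 3 above and 5 below 0, with a median log2 fold change of -0.02 (-0.05 to 0.02 leaving out each pool), 0 called and 0 at an unadjusted p under 0.05. The most abundant was Cpe, a carboxypeptidase gene, at 1927 CPM. Their sum spanned 4025 to 4191 CPM over the 8 pools.

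Esr1, the estrogen receptor gene altered in this model, had 11.6, 12.2, 10 and 10.8 CPM in POMC-C451Af/f replicates 1 to 4 and 12.3, 12.8, 11.6 and 16 CPM in the controls. The groups overlapped at 11.6 to 12.2 CPM. Its log2 fold change was -0.23 (SE 0.10), with an unadjusted p of 0.0462 in edgeR (adjusted p = 0.878). Control replicate 4 stood above the other pools, and without it the log2 fold change was -0.13 (unadjusted p = 0.144 in edgeR). Gene counts do not separate the mutated from the unmutated transcript, so this value does not check the genotype.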

How the data were processed

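RNA of the hypothalamus of female mice was measured in 8 pools, 4 per genotype. Per the labels and the study's methods, the authors prepared stranded poly(A) libraries, used FastQC 0.12.1, quantified reads with Salmon 1.10 against GRCm39 and analysed them in R 4.4 with DESeq2 1.40. The deposited table holds an estimated count per gene and pool, not normalized, and the authors' own DESeq2 comparison of the genotypes, with fold changes and p-values, was not used beyond naming its call of Th. Estimated counts were rounded to whole numbers and tested with edgeR 4.0.16 in R 4.3.3 (TMM, default filter on low counts, quasi-likelihood test), adjusting p-values by Benjamini-Hochberg across 18637 genes; calls needed an FDR of at most 0.05 and an absolute log2 fold change over 0.5. CPM used effective library sizes. Total counts of 36095253 to 48942116 per pool gave limits of 0.0613 to 0.0831 CPM for a count of 0. Symbols for 51424 of 55890 identifiers came from GENCODE M21 (GRCm38), whose coordinates are not those of the counting. Promoters came from RefSeq, found for 8 of 9 genes, the listed ones and Avpr2. Shared sequence was searched with BLAST 2.17.0. Exact permutation tests and correlations used log2(CPM + 0.5) in Python 3.11.15 with numpy 2.4.6 and scipy 1.17.1, all 70 assignments or 40320 pairings, and plots matplotlib 3.10.9. The edgeR steps were tested on simulated data. The listed genes and all gene lists were chosen with earlier results of these data known. Named genes were the listed ones, Avpr2, Esr1, in each list the most abundant gene and those with an unadjusted p under 0.05, the 5 genes most like Avp and the 5 most like Oxt, and the neighbours of both; 1 gene that this rule takes is not reported here. Otp, Cck and Arhgap4 were named after their values were seen. Alternatives were DESeq2 1.42.0, other normalizations and filters, the replicate block, robust estimation, counts not rounded, other thresholds, a pseudocount of 2, genotype means removed and each pool left out. After the data were seen, the midbrain and thalamus lists as covariates, the relations with partner genes and with paraventricular and supraoptic genes, the alternatives for list genes with an unadjusted p under 0.05, and list medians without each pool were added. No pair of pools came near sampling noise (chi-square of at least 4.48 times its degrees of freedom), and each was counted as a sample.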

Additional observations from a re-analysis of the deposited data

Results flagged for a closer look

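In 62 groups of 4 pools (the listed genes above 0 in all pools, the ratio of Avp to Oxt, the summed lists, the partner genes and Esr1), 6 had a pool whose gap to its nearest neighbour, divided by the range of the group, was above Dixon's critical value for 4. Chance flags about 1 in 20 groups. The log2 ratio of Avp to Oxt was -0.20 in control replicate 4, apart from the other controls (gap over range 0.884). Control replicate 1 was the pool apart in the other 5 groups: low in the signalling list (0.897, at 1167 CPM) and the oligodendrocyte list (0.942, at 4480 CPM), and high in the arcuate and ventromedial list (0.891, at 147 CPM), the anterior pituitary list (0.948, at 1451 CPM) and Gal (0.881, at 34.5 CPM). This pool also had the highest Avp and Oxt of the 8. Its part in the difference between genotypes is given by leaving it out: the log2 fold change was then -0.24 for Avp and -0.14 for Oxt.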

How the results depend on the processing

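edgeR called 4 genes, 0 of them listed here. A filter of at least 10 counts in every pool left 2, since 2 of the 4 did not pass it and were not tested. DESeq2 called 12 and the replicate block left 2; the cause was not tested. Leaving out each pool gave 4 to 5. Same-numbered pools did not deviate together (correlations 0.14, -0.18, -0.11 and 0.24 for replicates 1 to 4), so the numbers do not pair pools. With the block the log2 fold change was -0.37 for Avp and -0.25 for Oxt, and the paired difference of the log2 Avp to Oxt ratio was -0.11 (exact p = 0.125, the smallest that 4 pairs allow, so this test could not pass).

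Under the midbrain list as a covariate, added after the data were seen, values changed sign: 0.17 for Avp, 0.23 for Oxt, 0.12 for Oxtr, -0.04 for Lnpep and 0.04 for Caprin2. That list was itself higher in POMC-C451Af/f, so covariate and genotype cannot be cleanly told apart there. Under the thalamus list as a covariate, added in the same way, none did: -0.26 for Avp, -0.15 for Oxt, -0.03 for Oxtr, 0.02 for Lnpep and 0.00 for Caprin2. Values near 0 also changed sign without single pools: Oxtr was 0.02 and Lnpep -0.02 without POMC-C451Af/f replicate 4, Lnpep was -0.02 without control replicate 2, and Caprin2 was 0.00 without POMC-C451Af/f replicate 1 and 0.01 without control replicate 3. Leaving out each pool gave log2 fold changes of -0.56 to -0.22 for Avp, -0.38 to -0.10 for Oxt, -0.16 to 0.02 for Oxtr, -0.02 to 0.04 for Lnpep and -0.05 to 0.01 for Caprin2, a difference of the Avp to Oxt ratio of -0.16 to -0.07, and r of Avp with Oxt of 0.96 to 0.99. With genotype means removed that r was 0.97, with an adjusted p of 0.0972. With genotype means removed, 0 of 8 relations with region lists, 1 of 6 with partner genes and 2 of 2 with paraventricular and supraoptic genes still had an adjusted p under 0.05, by a permutation within genotypes whose smallest p is 0.00174; r stayed near its value, from 0.75 to 0.96 and from -0.85 to -0.78 for the lists and from 0.83 to 0.98 and from -0.82 to -0.79 for the partner genes. For the 16 other relations with an adjusted p under 0.05, 176 values under the alternatives all kept their sign, and 58 of them no longer had an adjusted p under 0.05; r of the midbrain list with Oxt was -0.59 without POMC-C451Af/f replicate 3. Avpr1b and Avpr2 were under the limit that a count of 0 allows, so a difference between genotypes was not detectable at this depth, and 1298 bases of Avpr2 are also those of Arhgap4.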
